A study of Rattus norvegicus with 10 samples.

Results

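The cytochrome P450 genes of the rat liver were compared between iron-deficient and pair-fed rats. The members are the genes whose symbol on the array begins with Cyp and a number and that have a probe set paired with exactly 1 gene. The bile acid and sterol genes Cyp7a1, Cyp7b1, Cyp8b1, Cyp27a1 and Cyp51 were left out. The brightest probe set over the 10 arrays stood for each gene. This gave 53 members of the 14217 genes with such a probe set, namely 3 in family Cyp1, 25 in Cyp2, 4 in Cyp3, 10 in Cyp4 and 11 in other families.

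Male Sprague-Dawley rats, labelled as 5 weeks old, were used in both groups, and the labels name no genetic change. The 5 rats of the iron-deficient group ate, freely, a diet of about 3 ppm iron that lacked ferric citrate. The 5 rats of the pair-fed group were given the control diet, with 48 ppm iron, in matched amounts. Livers were taken on day 3 of the experimental diets after 1.5 h of feeding, and the RNA of each was hybridised to 1 Affymetrix rat genome array. All rats had been trained beforehand to a limited daytime feeding period, so that recent feeding is shared by both groups. Each replicate is a separate rat.

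Cytochrome P450 enzymes hold a heme group whose iron binds oxygen, and most of those in the liver sit in the endoplasmic reticulum, where they take electrons from P450 oxidoreductase. Families Cyp1 to Cyp3 oxidise drugs, other foreign compounds and steroids, family Cyp4 hydroxylates the ends of fatty acids and eicosanoids, and the remaining families mostly make or clear steroids, retinoic acid and vitamin D. In the rat several of the Cyp2 and Cyp3 genes differ between the sexes under the pattern of growth hormone secretion, and the Cyp1 and Cyp4a genes are induced through the aryl hydrocarbon receptor and peroxisome proliferator-activated receptor alpha. Arrays measure transcript levels and not the amount, heme content or activity of the enzymes.

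The values are log2 signals, so that a difference of 1 is a doubling, and each fold change is the iron-deficient mean less the pair-fed mean, with a standard error (SE). A probe set was called up-regulated or down-regulated where the rank products method, which ranks the differences between rats of the 2 groups, gave a false discovery rate (FDR) under 0.05. Signals of different probe sets are not comparable in level. The median signal of the arrays ranged from 6.19 to 6.22. Iron-deficient replicate 1 had the largest 3' minus 5' log2 differences of the array controls, 0.36 for GAPDH and 1.74 for beta-actin (highest of the other 9 arrays 0.11 and 1.33), and the lowest mean correlation with the other arrays, 0.9915. Its part in the results was not tested beyond leaving it out. Of the hepatocyte markers Alb, Ttr, Apoa1 and Serpina1, 0 of 4 were called, at log2 fold changes of 0.00 to 0.06. The 4 measured red cell markers (Alas2, Hemgn, Slc4a1 and Ahsp) were down-regulated, with a median log2 fold change of -1.02 and a summed signal of 393 to 784 in the iron-deficient group against 559 to 1440 in the pair-fed group, and their part in the P450 values was not tested. None of the 20 measured markers of Kupffer, endothelial, stellate, bile duct and white blood cells was called. In whole liver, fewer cells of a type and less RNA per cell cannot be told apart.

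Most hepatic P450 signals differed little between the diets. Of the 53 members 5 were up-regulated, namely Cyp2c7, Cyp4f17, Cyp17a1, Cyp26b1 and Cyp1a1, and 1, Cyp4a3, was down-regulated. The other 47 did not pass. The up-regulated share was 9.43% of the members against 0.280% of all 31042 probe sets, and the down-regulated share 1.89% against 0.561%. The median log2 fold change was -0.02 over the members and 0.00 over all probe sets, with 21 members higher and 32 lower in mean in the iron-deficient group. The fold change lay within 0.25 for 44 members, or 83.0%, a smaller share than the 95.5% of all probe sets. The 95% confidence interval from limma lay inside ±0.5 for 42 members. The counts depended on single rats, with 1 up-regulated member without iron-deficient replicate 2 or 3 or pair-fed replicate 1, 2 or 3 without iron-deficient replicate 1, 4 or 5 or pair-fed replicate 2 or 5, and 4 without pair-fed replicate 3 or 4. There were 3 down-regulated members without iron-deficient replicate 1 and 0 without iron-deficient replicate 2 or 5 or pair-fed replicate 2, 3, 4 or 5, and rank sums in place of rank products called 0 in each direction. The counts over all probe sets moved as well. With 1 rat left out they ranged from 47 to 95 up-regulated and from 84 to 187 down-regulated, against 87 and 174 with all rats. Rank sums called 3 and 31 of all probe sets.

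The P450 genes that were called were among those that varied most from rat to rat. All 6 belonged to the 10 members with the largest spread within groups, an SD over 0.3. The other 4 were Cyp2a2, Cyp4a8, Cyp4a1 and Cyp26a1. Such a spread was found in 18.9% of the members and 5.09% of all probe sets, and the median SD was 0.183 over the members against 0.136. The SD was larger in the iron-deficient group for 36 members and in the pair-fed group for 17. This tilt was not particular to the P450 genes. Over the members the median SD was 0.189 in the iron-deficient and 0.158 in the pair-fed group. Over all probe sets it was 0.142 and 0.115. The part of the spread in the 6 calls was not tested. limma, which weighs the difference against the spread between rats, called 0 members and 0 of all probe sets (0%) at an adjusted p under 0.05, and the lowest adjusted p of a member was 0.601. At an unadjusted p under 0.05 limma had 6 members, or 11.3%, against 6.98% of all probe sets. They were Cyp4f17, Cyp4f6 and Cyp11a1 with higher means and Cyp2j4, Cyp2u1 and Cyp4a3 with lower means, and only Cyp4f17 and Cyp4a3 of them had been called by the rank products. In no member did the groups separate fully. Of all probe sets 0.493% were higher and 0.799% lower in every iron-deficient rat than in every pair-fed rat. At such shares few or none of 53 members would separate, so the count does not set the P450 genes apart. Exact permutation tests (2-sided) gave the called members p = 0.0397 (Cyp4f17), 0.127 (Cyp4a3), 0.206 (Cyp17a1), 0.254 (Cyp26b1), 0.349 (Cyp2c7) and 0.540 (Cyp1a1). The smallest p of a member in this test was 0.0159, for Cyp2b3, which was not called.

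**Figure D1:**
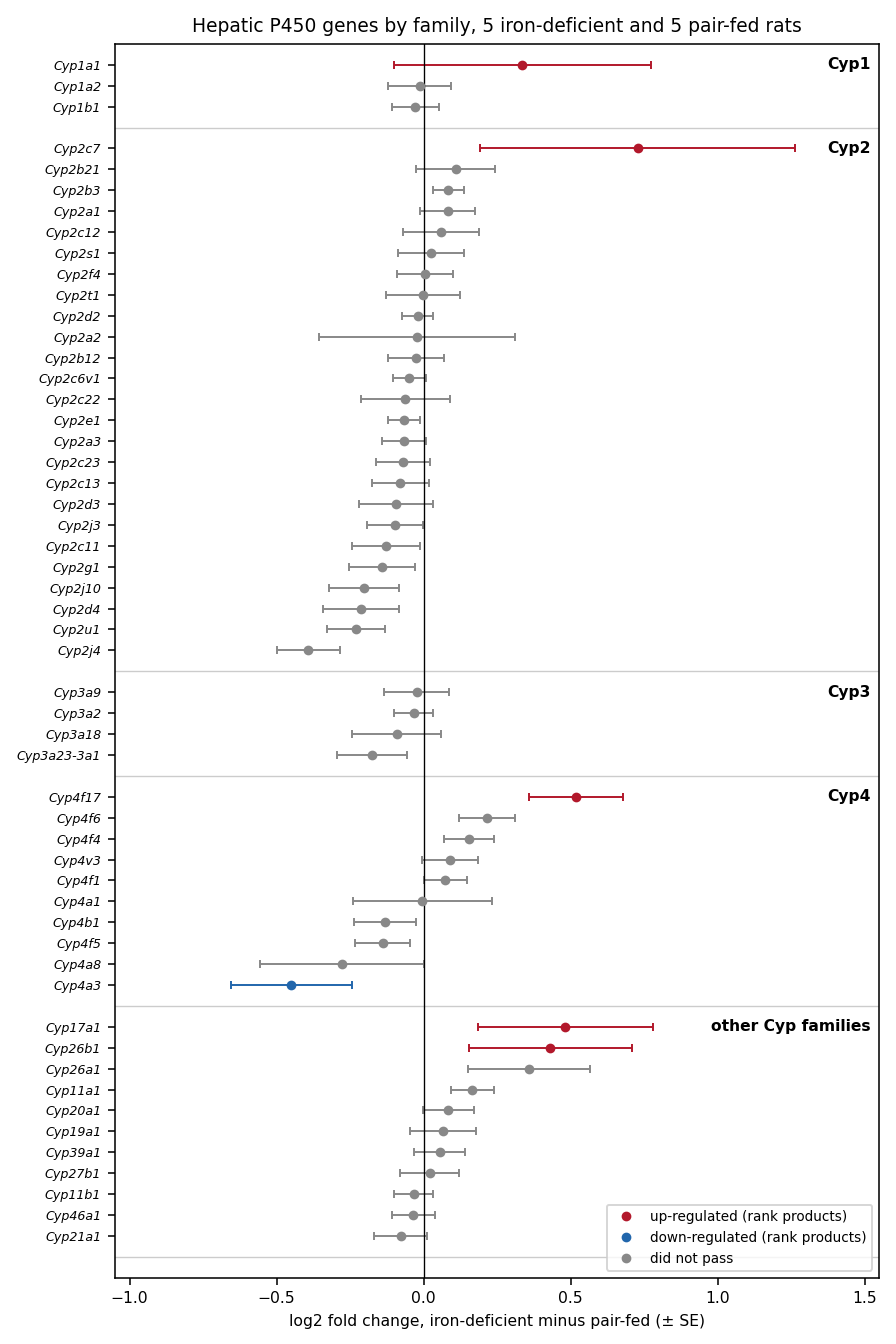
The log2 fold change (iron-deficient minus pair-fed, horizontal axis) of each of the 53 P450 members is plotted by family, with bars of 1 SE from limma (n = 5 rats per group). Red points mark the 5 up-regulated members, the blue point Cyp4a3, and 44 points lie within 0.25 of 0.

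In family Cyp1, Cyp1a1 was up-regulated and the related Cyp1a2 was close to 0. Cyp1a1, the classical target of the aryl hydrocarbon receptor, had log2 signals of 6.67, 7.32, 7.88, 7.12 and 6.17 in iron-deficient replicates 1 to 5, against 5.77, 8.24, 5.85, 7.12 and 6.48 in pair-fed replicates 1 to 5. The groups overlapped fully, and the highest signal of all rats was that of pair-fed replicate 2. Its log2 fold change was 0.34 (SE 0.438), with an FDR of 0.049 just inside the threshold. The call was kept in 3 of 10 settings with 1 rat left out. Without iron-deficient replicates 1, 2, 3 and 4 and pair-fed replicates 1, 3 and 5 it was lost, at log2 fold changes of 0.11 to 0.43, and the value reached 0.55 without iron-deficient replicate 5 and 0.72 without pair-fed replicate 2. It was 0.12 without iron-deficient replicate 3, 0.11 without pair-fed replicate 1 and 0.13 without pair-fed replicate 3. Cyp1a2, the constitutive liver enzyme that oxidises caffeine and aromatic amines, had signals of 12.69 to 13.22 (median 12.89) in the iron-deficient group and 12.63 to 13.10 (median 12.95) in the pair-fed group. Its log2 fold change was -0.01, with a 95% interval of -0.25 to 0.22. Cyp1b1 was at -0.03 (SE 0.080). Of the other measured targets of the aryl hydrocarbon receptor, Nqo1, Tiparp, Aldh3a1 and Ahrr, 0 of 4 were called, with a median log2 fold change of 0.07. Nqo1 was at 0.32 (SE 0.264), Tiparp at 0.08 (SE 0.073), Aldh3a1 at 0.07 (SE 0.073) and Ahrr, under 5 on every array, at -0.09 (SE 0.103). The receptor Ahr itself was at 0.07 (SE 0.173).

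Cyp2c7 had the largest difference of all P450 members. This gene encodes a liver enzyme that hydroxylates retinoic acid and is higher in female than in male rats. Its log2 signals were 12.58, 12.04, 13.04, 11.02 and 12.12 in iron-deficient replicates 1 to 5 and 11.78, 9.27, 12.40, 11.35 and 12.36 in pair-fed replicates 1 to 5. The groups overlapped, and pair-fed replicate 2 lay far below every other rat. The log2 fold change was 0.73 (SE 0.537), a 1.66-fold higher signal on the linear scale, with an FDR of 0.014. It kept the call in 8 of 10 settings with 1 rat left out. Without pair-fed replicate 2 the log2 fold change was 0.19 (FDR 0.323), and without iron-deficient replicate 3 it was 0.51 (FDR 0.193), both short of the threshold.

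The other Cyp2c genes were close to 0. Among the 6 remaining members of the subfamily, log2 fold changes ran from -0.13 to 0.06 and none was called. Cyp2c12, the other female-biased P450 in the list of sex-biased genes, had signals of 13.61, 14.03, 13.73, 13.45 and 13.44 in the iron-deficient group and 13.63, 13.94, 13.58, 13.33 and 13.47 in the pair-fed group (replicates 1 to 5 in each). Replicate 2 was the highest of each group, and the log2 fold change was 0.06 (SE 0.129, 95% interval -0.22 to 0.34). Whether this differs from the fold change of Cyp2c7 was not tested.

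The 4 male-biased genes Cyp2c11, Cyp2c13, Cyp2a2 and Cyp3a2 were slightly lower in mean and not called, with a median log2 fold change of -0.06. Cyp2c11, the main steroid hydroxylase of adult male rat liver, had signals of 13.90, 14.13, 14.16, 14.14 and 13.67 in iron-deficient rats and 13.99, 13.86, 14.27, 14.32 and 14.19 in pair-fed rats. Iron-deficient replicate 5 was the lowest of the 10, the groups overlapped, and the log2 fold change was -0.13 (SE 0.114, 95% interval -0.38 to 0.12). Cyp2c13, a steroid hydroxylase of male liver, was at -0.08 (SE 0.098). Cyp2a2, which hydroxylates testosterone, varied widely in both groups, with 10.10 to 11.47 in the iron-deficient group and 9.76 to 11.72 in the pair-fed group, at a log2 fold change of -0.02 (SE 0.334). As for Cyp2c7, its lowest signal was that of pair-fed replicate 2.

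The promoters of these sex-biased Cyp2c genes are shown because Cyp2c7 was called and the other 3, of the same subfamily, were not. All 7 Cyp2c members lie on chromosome 1 of the rat assembly GRCr8. RefSeq promoters (250 bases before to 50 after the start, build GRCr8) were matched for 43 of the 53 members, not for Cyp1a1, Cyp4f17 and Cyp17a1, and are given for Cyp2c7 (chr1:247966144-247966443, plus strand), Cyp2c12 (chr1:248676985-248677284, minus strand), Cyp2c11 (chr1:246174966-246175265, plus strand) and Cyp2c13 (chr1:248787139-248787438, minus strand). Capitals mark matches to TATAAA (the box that TBP binds in core promoters, searched on the gene's strand only) and, on both strands, AGGTCA (core of nuclear receptor sites), GCGTG (core of the aryl hydrocarbon receptor site), TTCNNNGAA (STAT), ATCAAT (ONECUT) and TGNACTTTG (HNF4).
Cyp2c7: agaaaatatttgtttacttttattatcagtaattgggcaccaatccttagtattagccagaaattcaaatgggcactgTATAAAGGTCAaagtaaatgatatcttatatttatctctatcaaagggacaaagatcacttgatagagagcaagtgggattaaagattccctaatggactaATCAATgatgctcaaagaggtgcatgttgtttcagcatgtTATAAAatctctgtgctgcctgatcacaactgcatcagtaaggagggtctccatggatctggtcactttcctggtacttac
Cyp2c12: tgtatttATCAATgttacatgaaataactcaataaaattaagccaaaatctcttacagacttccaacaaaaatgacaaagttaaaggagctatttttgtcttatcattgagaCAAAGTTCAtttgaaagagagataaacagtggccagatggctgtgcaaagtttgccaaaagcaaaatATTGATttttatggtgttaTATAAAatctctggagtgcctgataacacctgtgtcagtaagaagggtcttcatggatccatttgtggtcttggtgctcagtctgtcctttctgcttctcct
Cyp2c11: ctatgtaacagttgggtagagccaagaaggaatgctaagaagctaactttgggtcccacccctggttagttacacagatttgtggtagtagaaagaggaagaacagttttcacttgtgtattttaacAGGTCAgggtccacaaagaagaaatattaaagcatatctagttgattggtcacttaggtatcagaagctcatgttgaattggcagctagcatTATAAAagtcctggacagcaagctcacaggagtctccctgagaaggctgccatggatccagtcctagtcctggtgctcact
Cyp2c13: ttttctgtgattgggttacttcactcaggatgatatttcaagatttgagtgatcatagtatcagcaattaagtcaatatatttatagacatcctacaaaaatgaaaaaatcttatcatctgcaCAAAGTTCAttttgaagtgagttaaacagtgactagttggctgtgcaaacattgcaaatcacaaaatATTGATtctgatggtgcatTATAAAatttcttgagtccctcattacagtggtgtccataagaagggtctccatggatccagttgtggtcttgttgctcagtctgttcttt

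All 4 held a TATAAA, which 11 of the 43 matched members and 9.08% of all 27457 promoters hold. In Cyp2c7 it began at -31 and at -172 from the start, the second overlapping an AGGTCA at -167. AGGTCA was also present in Cyp2c11, at -123, and in 15 members and 15.7% of all promoters. The ATCAAT of Cyp2c7 at -71 had counterparts in Cyp2c12 (at -243 and, on the other strand, at -71) and Cyp2c13 (on the other strand, at -60), and this motif was found in 5 members and 7.87% of all promoters. Cyp2c12 and Cyp2c13 shared a TGNACTTTG on the opposite strand (-138 and -127), found in 6 members and 1.19% of all promoters. When each pair was laid side by side without gaps at the best of the offsets up to 30 bases, Cyp2c12 and Cyp2c13 were identical at 64.7% of the bases, and Cyp2c7 at 40.5% with Cyp2c12, 36.6% with Cyp2c13 and 35.1% with Cyp2c11. TTCNNNGAA was in 5 of the 43 member promoters and in 8.68% of all. It was not in these 4 windows, and neither was GCGTG. A match is a description of the letters and not a binding site.

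In family Cyp2 as a whole the means of the iron-deficient group were mostly lower, by small amounts, and none of the lower members passed. Over the 25 members, Cyp2c genes included, the median log2 fold change was -0.06, with 7 higher and 18 lower. Cyp2e1, which oxidises ethanol and other small molecules, had signals of 14.75, 14.58, 14.69, 14.67 and 14.67 in iron-deficient rats and 14.80, 14.74, 14.72, 14.73 and 14.72 in pair-fed rats. Apart from iron-deficient replicate 1, every iron-deficient rat was lower than every pair-fed rat, by small amounts, and the log2 fold change was -0.07 (SE 0.055, exact permutation test, 2-sided, p = 0.0556). Cyp2c6v1, a constitutive drug hydroxylase, was at -0.05 (SE 0.057). Across all families the 13 members with a mean signal over 13 had log2 fold changes of -0.18 to 0.08, none was called, and their 95% intervals together spanned -0.43 to 0.34. Whether the arrays still resolve differences in transcript level at such high signals was not tested.

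Among the Cyp2j genes, which form epoxides of arachidonic acid, all 3 members had lower means. Cyp2j4 had signals of 11.03, 10.76, 10.62, 10.47 and 10.46 in iron-deficient replicates 1 to 5, against 10.90, 11.08, 10.97, 11.16 and 11.19 in pair-fed replicates 1 to 5. Iron-deficient replicates 2 to 5 lay below all pair-fed rats, and replicate 1 lay within their range. The log2 fold change was -0.39 (SE 0.108, exact permutation test, 2-sided, p = 0.0238), and the FDR of 0.071 fell just short of the threshold. Without iron-deficient replicate 1, the array with the largest 3' minus 5' differences, Cyp2j4 passed at -0.48 (FDR 0.021), and it passed in none of the other 9 settings with 1 rat left out. For Cyp2j4 and Cyp2e1 replicate 1 was the only iron-deficient rat not below all pair-fed rats, so leaving it out separates the groups by construction. Without it 1.40% of all probe sets separated in that direction. In the other direction Cyp4f6 and Cyp26a1 then separated, as did 1.01% of all probe sets. Cyp2j10 and Cyp2j3 were at -0.20 (SE 0.118) and -0.10 (SE 0.096). A second probe set of Cyp2j3 was slightly higher, at 0.04 (SE 0.115), and did not pass. The Cyp2j4 promoter, Cyp2j4 (chr5:116322993-116323292, minus strand), is shown because it held a TTCNNNGAA, at -160, and no match to the other motifs.
Cyp2j4: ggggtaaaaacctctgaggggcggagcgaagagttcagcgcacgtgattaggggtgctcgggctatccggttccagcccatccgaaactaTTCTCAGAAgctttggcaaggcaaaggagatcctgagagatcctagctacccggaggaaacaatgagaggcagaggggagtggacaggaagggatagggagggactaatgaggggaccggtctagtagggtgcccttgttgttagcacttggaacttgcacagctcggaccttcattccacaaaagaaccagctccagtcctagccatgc

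**Figure D2:**
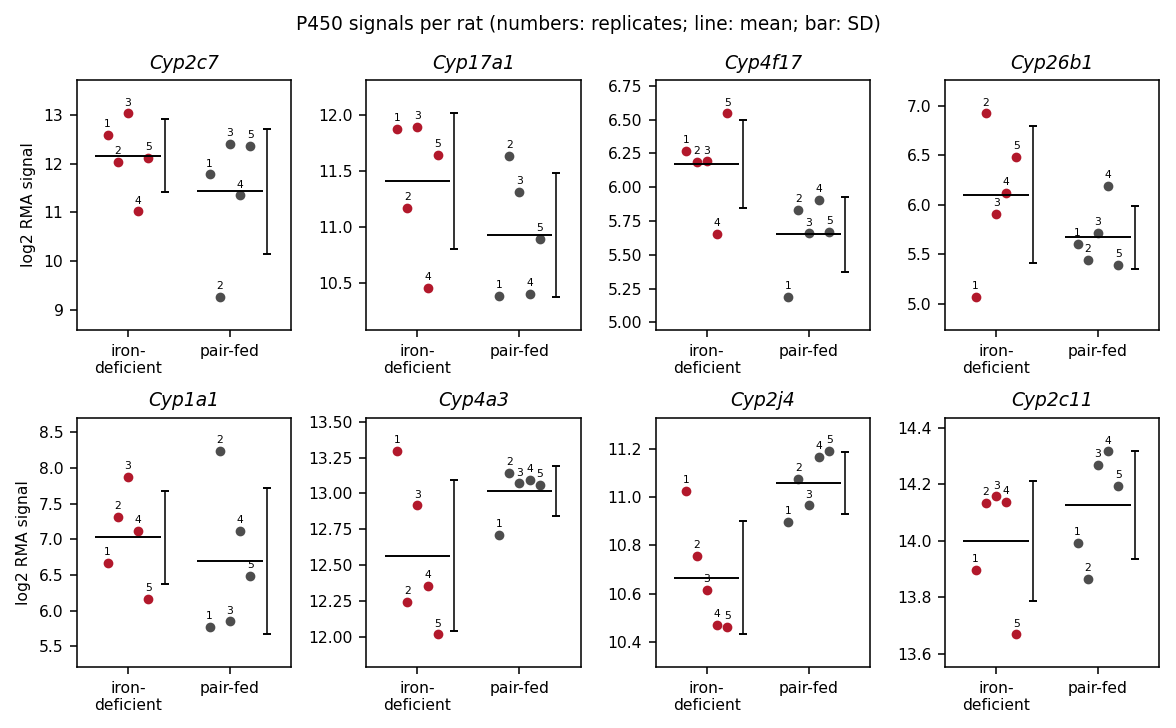
Log2 signals (vertical axes, each on its own scale) of 8 P450 genes are plotted for each rat, iron-deficient left and pair-fed right, with replicate numbers, the mean (line) and the SD (bar, n = 5 rats per group). The groups overlap in all 8 genes, pair-fed replicate 2 is the lowest for Cyp2c7 and the highest for Cyp1a1, and iron-deficient replicate 1 stands above the other iron-deficient rats for Cyp4a3 and Cyp2j4.

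Family Cyp3, whose members carry much of the oxidation of drugs and steroids, was close to 0. All 4 members had lower means, none was called, and the median log2 fold change was -0.06. Cyp3a2, the male-biased testosterone hydroxylase, had signals of 14.16 to 14.44 in iron-deficient rats and 14.25 to 14.43 in pair-fed rats, at a log2 fold change of -0.03 (SE 0.066). Cyp3a23-3a1, which glucocorticoids and pregnane X receptor ligands induce, had 13.09, 12.84, 13.32, 12.59 and 12.73 in the iron-deficient group and 13.07, 13.07, 13.06, 13.21 and 13.04 in the pair-fed group. The iron-deficient rats spread on both sides of the narrow pair-fed range, and the log2 fold change was -0.18 (SE 0.118). Cyp3a18 and Cyp3a9 were at -0.09 (SE 0.151) and -0.02 (SE 0.111), and the signals of Cyp3a9 were under 5 on every array.

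Family Cyp4 held both an up-regulated and a down-regulated member. Cyp4a3, a fatty acid omega-hydroxylase induced through peroxisome proliferator-activated receptor alpha, had log2 signals of 13.30, 12.24, 12.92, 12.35 and 12.02 in iron-deficient replicates 1 to 5, against 12.71, 13.14, 13.07, 13.09 and 13.06 in pair-fed replicates 1 to 5. Iron-deficient replicates 2, 4 and 5 were below every pair-fed rat, whereas replicate 1 was above every pair-fed rat. The SD was 0.527 in the iron-deficient group and 0.173 in the pair-fed group. This gave a log2 fold change of -0.45 (SE 0.205, FDR 0.031). It passed in 3 of 10 settings with 1 rat left out, reaching -0.63 (FDR 0.00564) without iron-deficient replicate 1. Without iron-deficient replicates 2, 4 and 5 and pair-fed replicates 2, 3, 4 and 5 the call was lost, at -0.44 to -0.31 (FDR 0.086 to 0.199). A probe set shared by Cyp4a3 and Cyp4a2 was at -0.32 (SE 0.168) and did not pass. Cyp4a2 and Cyp4a3 are near-identical copies, so the share of each in these signals is uncertain.

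The other Cyp4a members varied in the iron-deficient group without a difference that passed. Cyp4a8 had signals of 6.14, 5.13, 5.62, 6.82 and 5.27 in iron-deficient rats and 6.22, 6.35, 6.36, 5.76 and 5.68 in pair-fed rats. Iron-deficient replicates 2, 3 and 5 were below every pair-fed rat and replicate 4 was above them, and the log2 fold change was -0.28 (SE 0.279, FDR 0.116). It passed without iron-deficient replicate 1 at -0.36 and without iron-deficient replicate 4 at -0.53, and it was not called without iron-deficient replicate 2 at -0.11 or without iron-deficient replicate 5 at -0.14. A second probe set of Cyp4a8 was at -0.09 (SE 0.137) and did not pass. There iron-deficient replicate 4 was at 5.63, within the pair-fed range of 5.29 to 5.91. Cyp4a1 was at 0.00 (SE 0.236), with 12.04 in iron-deficient replicate 1 and 10.44 in iron-deficient replicate 5, the highest and the lowest of the 10 rats. Replicate 1 was the highest of its group for Cyp4a3 and Cyp4a1 and the next to highest for Cyp4a8, and replicate 5 was the lowest for Cyp4a3 and Cyp4a1. Ppara, which encodes the receptor, was at 0.12 (SE 0.198). The Cyp4a3 promoter, Cyp4a3 (chr5:134352187-134352486, minus strand), is shown as that of the down-regulated member, and it held 1 match, AGGTCA at -105.
Cyp4a3: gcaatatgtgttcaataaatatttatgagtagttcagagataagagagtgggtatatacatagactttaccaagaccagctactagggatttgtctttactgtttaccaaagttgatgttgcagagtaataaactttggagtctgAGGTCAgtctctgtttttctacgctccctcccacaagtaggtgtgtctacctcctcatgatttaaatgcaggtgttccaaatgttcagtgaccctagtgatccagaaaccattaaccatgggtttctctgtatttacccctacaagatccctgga

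The Cyp4f genes hydroxylate leukotriene B4 and arachidonic acid in the rat, and 4 of the 5 members had higher means. Cyp4f17 had log2 signals of 6.27, 6.19, 6.19, 5.65 and 6.55 in iron-deficient replicates 1 to 5, against 5.19, 5.83, 5.66, 5.91 and 5.67 in pair-fed replicates 1 to 5. Apart from iron-deficient replicate 4, every iron-deficient rat was above every pair-fed rat. The log2 fold change was 0.52 (SE 0.161, exact permutation test, 2-sided, p = 0.0397), with an FDR of 0.033. The call was lost, at 0.40 to 0.51 (FDR 0.0736 to 0.218), without iron-deficient replicates 1, 2, 3 and 5 and pair-fed replicate 1, and was kept in the other 5 settings. For Cyp4f17 and Cyp2b3 iron-deficient replicate 4 was the only one not above all pair-fed rats, so leaving it out separates the groups by construction. Without it 1.36% of all probe sets separated in that direction. Cyp4f6, Cyp4f4 and Cyp4f1 were at 0.22 (SE 0.095), 0.15 (SE 0.085) and 0.07 (SE 0.073) and Cyp4f5, under 5 on every array, at -0.14 (SE 0.094), none of them called. All 5 lie on chromosome 7.

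Cyp17a1, the steroid hydroxylase and lyase on the path to androgens, was up-regulated. Its log2 signals were 11.88, 11.17, 11.89, 10.46 and 11.65 in iron-deficient replicates 1 to 5, against 10.39, 11.64, 11.31, 10.41 and 10.90 in pair-fed replicates 1 to 5. Iron-deficient replicates 1, 3 and 5 were above the highest pair-fed rat, whereas replicate 4 was close to the lowest. This gave a log2 fold change of 0.48 (SE 0.298, FDR 0.041). The call was kept without iron-deficient replicate 4, pair-fed replicate 2 and pair-fed replicate 3 (0.72, 0.66 and 0.58), and lost without iron-deficient replicates 1, 2, 3 and 5 and pair-fed replicates 1, 4 and 5, at 0.35 to 0.54. Of the 4 other measured P450 genes of steroid hormone synthesis none was called. Cyp11a1, which cleaves the cholesterol side chain, was at 0.17 (SE 0.073), Cyp19a1, the aromatase, at 0.07 (SE 0.113), Cyp11b1 at -0.03 (SE 0.066) and Cyp21a1 at -0.08 (SE 0.091). Cyp11a1, Cyp11b1 and Cyp19a1 were under 5 on every array, as were 8 members in all. Cyp11b2 was not measured by a probe set of 1 gene.

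Of the P450 genes that clear retinoic acid, Cyp26b1 was up-regulated and Cyp26a1 was not called. Cyp26b1 had log2 signals of 5.07, 6.92, 5.91, 6.12 and 6.48 in iron-deficient replicates 1 to 5, against 5.60, 5.45, 5.72, 6.19 and 5.40 in pair-fed replicates 1 to 5. Iron-deficient replicates 2 and 5 were above every pair-fed rat and replicate 1 was below every pair-fed rat. The log2 fold change was 0.43 (SE 0.278, FDR 0.034). It was 0.69 without iron-deficient replicate 1 and 0.23 without iron-deficient replicate 2. The call was lost without iron-deficient replicates 2, 4 and 5 and pair-fed replicates 1, 2 and 5, at 0.23 to 0.43, and kept in 4 of 10 settings. A second probe set of Cyp26b1 was at 0.04 (SE 0.070) and did not pass. Cyp26a1 had 4.52, 4.96, 4.91, 4.94 and 5.98 in iron-deficient rats and 4.71, 4.62, 4.82, 4.86 and 4.51 in pair-fed rats, and its log2 fold change of 0.36 (SE 0.207, FDR 0.239) was 0.13 without iron-deficient replicate 5. Cyp27b1, which makes active vitamin D, was at 0.02 (SE 0.100). Cyp26c1, Cyp24a1 and Cyp2r1 were not measured by a probe set of 1 gene. Cyp20a1, whose substrate is not established, was at 0.08 (SE 0.086). The Cyp26b1 promoter, Cyp26b1 (chr4:118616127-118616426, minus strand), is shown as that of an up-regulated member outside family Cyp2. It held 1 match, GCGTG at -183, a motif found in 11 of the 43 member promoters and 31.1% of all.
Cyp26b1: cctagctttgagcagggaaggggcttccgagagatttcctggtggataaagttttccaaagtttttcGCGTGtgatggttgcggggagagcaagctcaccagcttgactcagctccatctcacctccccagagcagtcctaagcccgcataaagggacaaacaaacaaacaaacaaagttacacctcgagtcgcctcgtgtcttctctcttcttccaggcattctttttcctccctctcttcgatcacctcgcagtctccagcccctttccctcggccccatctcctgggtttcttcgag

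**Figure D3:**
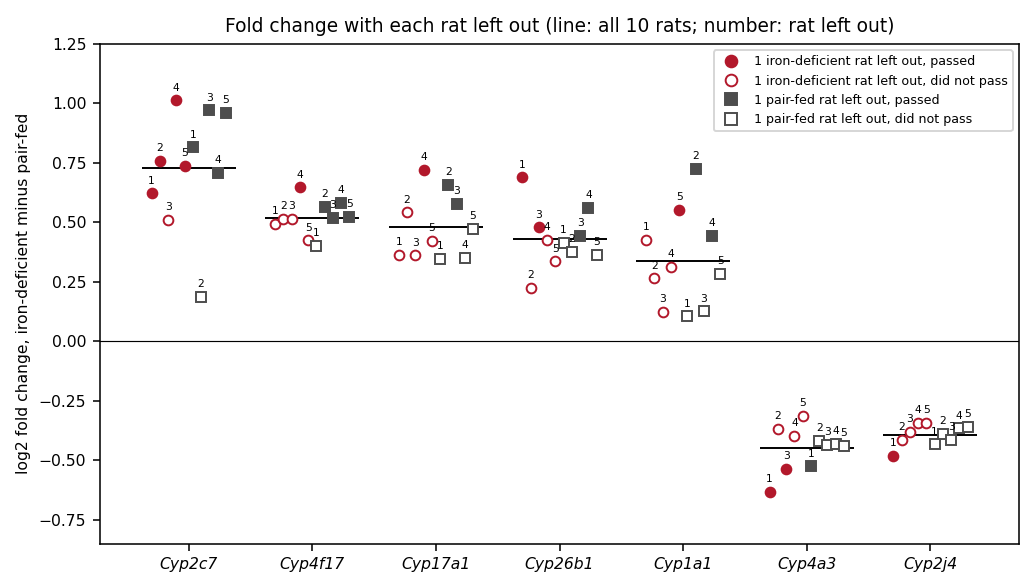
The log2 fold change (vertical axis, iron-deficient minus pair-fed) of 7 P450 genes is plotted with each of the 10 rats left out in turn (circles, iron-deficient; squares, pair-fed; number, the rat left out; filled, passed the rank products), beside the value over all rats (line). Cyp2c7 is at 0.19 without pair-fed replicate 2, and Cyp4a3 and Cyp2j4 are lowest without iron-deficient replicate 1.

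Counting signals more than 0.5 from the pair-fed mean, iron-deficient replicate 5 had 11 of the 53 members, the other iron-deficient rats 4 to 6 and the pair-fed rats 2 to 4. The pair-fed mean includes the pair-fed rats themselves, so smaller counts are expected for them and the groups cannot be compared by these counts. Iron-deficient replicate 4 had the lowest signal of its group for Cyp2c7, Cyp17a1 and Cyp4f17, and replicate 1 the lowest for Cyp26b1. The family medians were -0.01 for Cyp1, -0.06 for Cyp2, -0.06 for Cyp3, 0.03 for Cyp4 and 0.07 for the other families, each within 0.1 of the median over all probe sets.

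**Figure D4:**
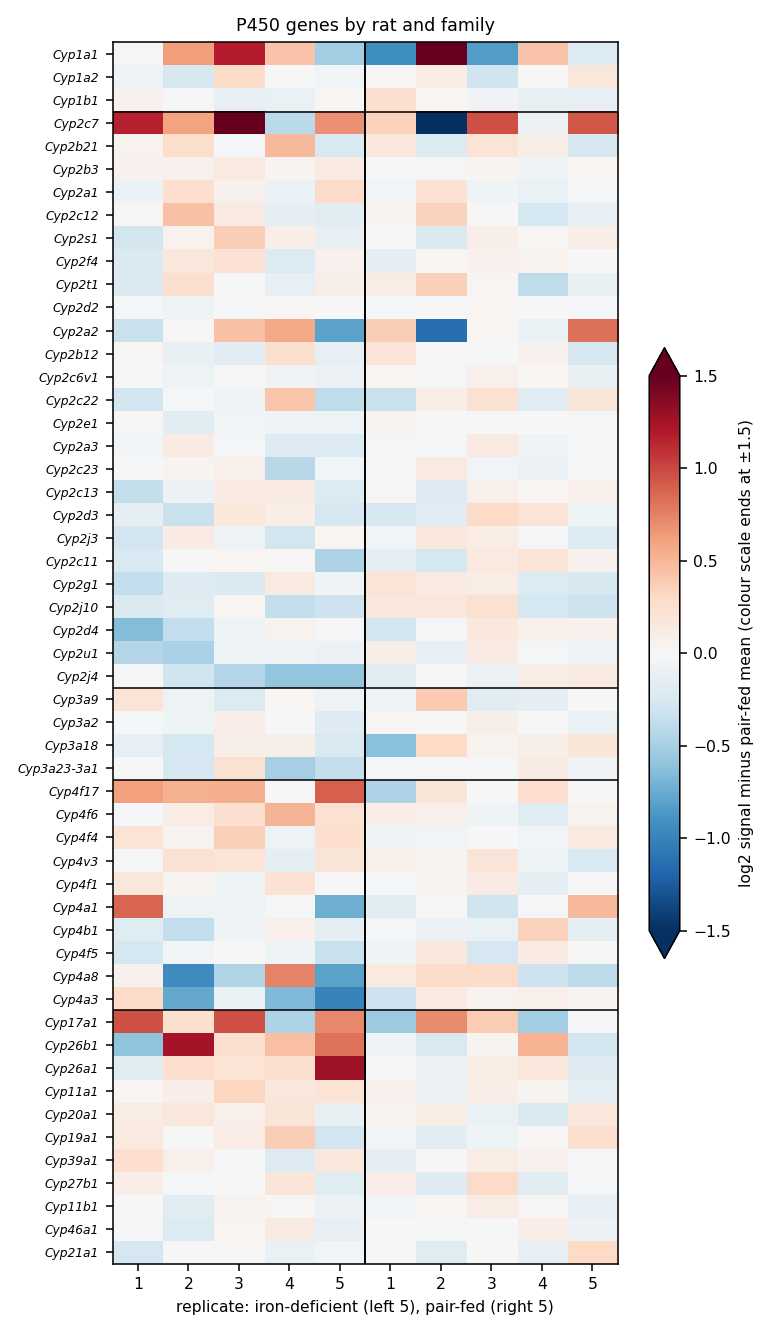
The log2 signal minus the pair-fed mean (colour) of the 53 P450 members (rows, by family) is shown for each rat (columns, iron-deficient left and pair-fed right). Strong colours are limited to few rows, such as Cyp1a1, Cyp2c7, Cyp2a2, Cyp4a8, Cyp4a3, Cyp17a1, Cyp26b1 and Cyp26a1. Among the iron-deficient rats, replicate 5 has the most members beyond 0.5 (11).

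The electron donors and the heme supply of the P450 enzymes showed no call. Of 8 measured genes, 0 passed, with a median log2 fold change of -0.03. Por, the P450 oxidoreductase, was at -0.06 (SE 0.138), and Alas1, the first enzyme of heme synthesis in liver, at -0.03 (SE 0.208). Cyb5r3, the reductase of cytochrome b5, had the largest difference of the list, 0.29 (SE 0.104), and did not pass. Fdxr was not measured by a probe set of 1 gene.

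Of 18 factors that regulate P450 genes, 1 was up-regulated and 1 down-regulated, with a median of 0.04. The shares of all probe sets were 0.280% up-regulated and 0.561% down-regulated. Bcl6, a repressor that in the mouse is higher in male liver and acts on STAT5 target genes, had signals of 7.03, 7.16, 6.79, 7.17 and 7.60 in iron-deficient replicates 1 to 5, against 9.89, 7.11, 8.84, 7.56 and 7.79 in pair-fed replicates 1 to 5. Pair-fed replicates 1 and 3 were far above all other rats, and the log2 fold change was -1.09 (SE 0.418). The call was kept with any 1 rat left out, at -1.37 to -0.68. Without pair-fed replicate 1 the value was -0.68.

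Cux2, a repressor that in the mouse is specific to female liver, had 6.12, 6.23, 5.73, 5.15 and 5.71 in iron-deficient rats and 5.44, 5.33, 4.98, 5.23 and 4.94 in pair-fed rats. Iron-deficient replicate 4 was the only one within the pair-fed range, and the log2 fold change was 0.60 (SE 0.179). The call was lost without iron-deficient replicate 1, at 0.52, and without iron-deficient replicate 2, at 0.49. A second probe set was up-regulated at 1.04. The receptors Nr1i2, Nr1i3 and Hnf4a were at 0.03, -0.15 and 0.03 and Stat5b at -0.01, none of them called.

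Of 9 measured partners in drug and epoxide metabolism 1 was up-regulated and 2 were down-regulated, with a median log2 fold change of -0.28. Among all probe sets these shares were 0.280% and 0.561%. Fmo5, a flavin-containing monooxygenase, was at -0.51 (SE 0.188), and was lost without iron-deficient replicate 4 and pair-fed replicates 1, 2 and 5, at -0.52 to -0.35. Gsta3, a glutathione transferase, was at -0.64 (SE 0.295), and was lost without iron-deficient replicate 4 and pair-fed replicate 2, at -0.39 and -0.50. Fmo4, also a flavin-containing monooxygenase and named after its values were seen, was at -0.36 (SE 0.093) and did not pass. Its second probe set was down-regulated at -0.43 (SE 0.0992), with signals of 6.70 to 7.07 in iron-deficient rats and 7.17 to 7.66 in pair-fed rats, so that the groups did not overlap. Sult2a2, a hydroxysteroid sulfotransferase that is higher in female rats, had 12.11, 11.15, 7.73, 7.14 and 7.50 in iron-deficient rats and 7.96, 7.81, 7.92, 11.56 and 7.42 in pair-fed rats. Iron-deficient replicates 1 and 2 and pair-fed replicate 4 were far above the others, so that the log2 fold change of 0.59 (SE 1.03) rested on these rats and was -0.15 without iron-deficient replicate 1, 0.08 without iron-deficient replicate 2 and 1.35 without pair-fed replicate 4. It was 0.94 to 1.09 without 1 of iron-deficient replicates 3 to 5, and the call was lost at 0.31 to 0.45 without 1 of pair-fed replicates 1, 2, 3 and 5.

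Several P450 enzymes are known to be more abundant in hepatocytes near the central vein, so genes of the same zone were read beside them. Of 6 measured central vein genes 2 were down-regulated, with a median of -0.12. Lgr5, Axin2, Oat and Tbx3 were not called, at -0.22, -0.03, 0.07 and 0.10. Over all probe sets 0.280% were up-regulated and 0.561% down-regulated, and the lists were chosen with earlier results known. Glul, the glutamine synthetase, had 12.03, 11.63, 11.91, 12.01 and 11.91 in the iron-deficient group and 12.43, 12.51, 12.30, 12.09 and 12.50 in the pair-fed group, without overlap, at -0.47 (SE 0.098). It lost the call without iron-deficient replicate 2 and pair-fed replicates 1, 2, 3 and 5, at -0.49 to -0.40. Of its other probe sets, 1 was down-regulated at -0.53 and 1 did not pass at -0.25. Slc1a2, a glutamate transporter, was at -0.64 (SE 0.215), lost the call without pair-fed replicate 5 at -0.49, and was at 0.04 in a second probe set that did not pass. On the portal side 1 of 6 genes was up-regulated, Sds, the serine dehydratase, at 0.30 (SE 0.450), with a median of 0.12. Its value was 0.02 without iron-deficient replicate 3 and 0.70 without iron-deficient replicate 1, and the call was lost without iron-deficient replicates 2, 3 and 5 and pair-fed replicates 3 and 5, at 0.02 to 0.22. Hal, Cps1, Ass1, Gls2 and Pck1 were not called, at -0.20, 0.02, 0.08, 0.15 and 0.39. Of Cyp2e1 and Cyp1a2, P450 genes typical of the central vein side, neither was called.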

How the data were processed

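The deposited values are log2 signals per probe set that the authors computed with RMA (robust multiarray average) from 10 Affymetrix arrays, 1 per rat, and 0 columns were left out. Per the labels' treatment and title, 5 rats were iron-deficient and 5 pair-fed, although the source field of the controls names the iron-deficient diet. The labels and the methods differ in the hour of feed removal. Tests covered 31042 probe sets, without the 57 controls, and the platform annotation names a single gene for 20826 of these. No filter on dim signals was applied.

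Rank products over all 25 iron-deficient and pair-fed pairings were computed in Python 3.11.15 (numpy 2.4.6, pandas 2.3.3) with 100 permutations within arrays, and passed at a false discovery rate under 0.05. Fold changes, SE, 95% intervals and Benjamini-Hochberg adjusted p-values over all probe sets came from limma 3.58.1 in R 4.3.3. Exact permutation tests of single probe sets (scipy 1.17.1) were 2-sided, were not adjusted for the 53 members, and have a smallest p of 0.00794. Scripts were tested on simulated data. Figures used matplotlib 3.10.9. The 5 arrays per group limit the precision.

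The members, the gene lists and the rule for named genes were chosen with earlier results of these data known. The rule takes every member that passed or whose groups did not overlap, the 2 brightest and the extreme members of each family, the study's listed P450 genes, the sex-biased, steroid, retinoic acid and vitamin D P450 genes, and partner genes that passed, 27 members and 8 partners in all. Other members with values complete their subfamily or, for Cyp2b3, had the smallest exact p, and were chosen after their values were seen. Alternatives were rank sums, limma, the replicate number as a block, a filter on dim probe sets, 2 renormalizations, other rules for the probe set of a gene, 1000 permutations (chosen after seeing the data) and leaving out each rat. Chromosomes and promoter sequences are from RefSeq (GRCr8), and symbols of all 53 members were found there.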

Additional observations from a re-analysis of the deposited data

Results flagged for a closer look

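Single arrays stood apart from the other 4 of their group in 6 of the 70 groups examined for the named genes (Dixon's test, gap over range above 0.710), where chance gives about 1 in 20 groups, or 3.5. All 6 were pair-fed arrays. Cyp2c13 was lowest in pair-fed replicate 2 at 13.60 (others 13.80 to 13.87), Cyp2e1 was highest in pair-fed replicate 1 at 14.80 (others 14.72 to 14.74), and Cyp3a23-3a1 was highest in pair-fed replicate 4 at 13.21 (others 13.04 to 13.07). Cyp3a18 and Cyp4a3 were lowest in pair-fed replicate 1, at 12.53 (others 13.20 to 13.45) and 12.71 (others 13.06 to 13.14). Sult2a2 was highest in pair-fed replicate 4 at 11.56 (others 7.42 to 7.96). Over the 53 P450 members and the partner genes together 11 of 122 groups had such an array.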

How the results depend on the processing

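The count of up-regulated P450 members was 5 and that of down-regulated members 1. With 1 rat left out they ranged from 1 to 4 and from 0 to 3, and members without overlap between groups, 0 in each direction over all rats, ranged from 0 to 2 higher and 0 to 2 lower. Of all probe sets 47 to 95 were then up-regulated and 84 to 187 down-regulated, and 0.82% to 1.36% were higher and 1.05% to 1.64% lower without overlap. Rank sums and limma called 0 members up and 0 down, and rank products without probe sets under 5 on every array called 3 up. Of all probe sets rank sums called 3 up and 31 down, and limma 0. The replicate numbers did not pair the rats, since the deviations of same-numbered rats correlated at -0.04 to 0.09 and 1 of 5 iron-deficient rats correlated best with its own number. With the number as a replicate block, rank products over the 5 same-numbered pairs called 2 members up and limma 0 up and 0 down. Of all probe sets these rank products called 79 up and 149 down. The cause of these changes was not tested, except that leaving out a rat leaves fewer pairs. Quantile normalization once more, centring on array medians and 1000 permutations (a choice added after seeing the data) changed the call of none of the 35 named genes, and averaging the probe sets of a gene lost Cyp26b1 and Slc1a2. With 1 rat left out the family medians stayed at -0.04 to 0.04 (Cyp1), -0.07 to -0.03 (Cyp2), -0.11 to -0.02 (Cyp3), -0.029 to 0.078 (Cyp4) and 0.046 to 0.13 (others). Sult2a2 reversed, to -0.15, without iron-deficient replicate 1, and ranged up to 1.35 with another rat left out. For the named genes, the second quantile normalization, the centring, 1000 permutations, the mean over probe sets, limma with the replicate block and leaving out each of the 10 rats gave 449 values with the same call or the same lack of one, 74 with the call lost and 1 with a call gained, besides the reversal of Sult2a2. Genes that were not called and lay near 0, such as Cyp2a2 and Cyp1a2, changed sign under some of these settings.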

Other observations

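Cyp2c12, known for its high expression in adult female rat liver, had signals of 13.44 to 14.03 in the iron-deficient group and 13.33 to 13.94 in the pair-fed group, in the livers of male rats labelled as 5 weeks old. Cross-hybridisation of its probe set with other Cyp2c transcripts was not tested. Probe sets shared by several P450 genes, which are no members, were not called in any of 7 cases. The probe set of Cyp2b2 and Cyp2b1, the phenobarbital-inducible enzymes, was at a log2 fold change of -0.18 (SE 0.169), that of Cyp2d5 and Cyp2d1 at -0.11 (SE 0.076) and that of Cyp2a2 and Cyp2a1 at 0.00 (SE 0.070).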
